A study of Mus musculus with 32 samples.

Results

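The type I interferon response was followed through 33 genes in mouse E0771 mammary tumour cells and tumours with and without Ddr1, a collagen-binding receptor tyrosine kinase. Type I interferons are cytokines that act through the receptor pair Ifnar1 and Ifnar2, the kinases Jak1 and Tyk2, and a transcription factor complex that includes Stat2 and Irf9. The complex binds the interferon-stimulated response element (ISRE) in the promoters of its target genes, whose products sense viral RNA, degrade or block it, or feed back on the pathway. In tumours these genes are active both in the cancer cells and in the leukocytes around them. The 33 members were chosen by symbol as well-known interferon-stimulated genes, and all were present in each of the 4 deposited tables (22609 genes in each of the culture and Rag1-/- tables, 25277 in each of the others). In every table all 33 also reached the mean normalized count of 10 that was asked of a gene to be tested; the nearest to that limit was Mx2 in culture, with means of 21.4 in wild-type and 4.4 in knockout libraries.

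The series holds 32 RNA-seq libraries in 8 groups. In culture, 3 DDR1 WT libraries (parental cells, labelled replicate 1 here, an empty vector derivative, replicate 2, and a control derivative, replicate 3) were set against 2 DDR1 KO derivatives named 3-6 and 3-7. Tumours of DDR1 WT or DDR1 KO E0771 cells came from Rag1-/- mice, whose T and B cells do not mature, with 5 libraries a genotype. At day 4, tumours of both genotypes that had been moved from Rag1-/- mice into C57BL/6 mice gave 4 wild-type and 5 knockout libraries. At day 6, E0771 tumours in C57BL/6 mice under IgG or under hDDR1 ECD antibody gave 4 libraries each, and the labels give no Ddr1 genotype and no age of the mice. No label says that the libraries are separate animals or cultures, so p-values measure the spread between these libraries, which may be in part technical, and the knockout libraries stand for the derivatives used.

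Ddr1 itself followed the labels, with 171 to 213 RPM (reads per 1000000 reads counted) in cultured wild-type libraries against 19.0 to 26.7 in the knockout, 174 to 189 against 33.3 to 42.3 in Rag1-/- hosts, and 132 to 175 against 27.9 to 49.7 at day 4. At day 6 it lay at 15.9 to 28.5 RPM in both groups, near the knockout levels of the other tables. Library totals ran from 18967300 to 39732635 reads. The tumour libraries are bulk RNA, so fewer cells of a type and less RNA per cell cannot be told apart. Of 5 pan-leukocyte markers (Ptprc, Laptm5, Coro1a, Cd53, Cd52), the summed RPM lay between 0.441 and 1.30 for cultured cells, between 272 and 379 for Rag1-/- tumours, between 292 and 802 on day 4 and between 505 and 2698 on day 6. The summed level of 8 T cell markers was 8.25 to 12.7 RPM in Rag1-/- hosts, where Cd3d, Cd3e and Cd3g averaged under 10 normalized counts.

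The members lie on 14 chromosomes, and 15 of them stand in 6 runs of neighbours on GRCm38: the Ifit genes on chromosome 19, Oas1a, Oas2 and Oas3 and also Oasl1 and Oasl2 on chromosome 5, Parp14, Dtx3l and Parp9 and also Mx1 and Mx2 on chromosome 16, and Rsad2 and Cmpk2 on chromosome 12. Reads of 5 members are uncertain because the gene overlaps another protein-coding gene: Irf9 with Rnf31 on the same strand, and Irf7, Parp9, Dtx3l and Rtp4 with a gene on the other strand, since whether counting used strand is not given in the sources used here. The Oas1a, Ifit3 and Ifi27l2a counts may also share reads with close relatives, and Mx2 is annotated as a polymorphic pseudogene. Of the 33 members, 23 had at least 1 promoter in the RefSeq table (GRCm38.p6, 250 bases before to 50 after the start). The ISRE core, searched on both strands as GAAA, 2 bases of any kind and GAAA, was present for 11 of the 23 (47.8%) and for 1079 of all 27025 genes with a promoter (3.99%). The core of the gamma-activated sequence, TTCNNNGAA, which is its own reverse complement and can overlap an ISRE, was present for 5 of the 23 (21.7%) and for 9.55% of all genes. Under a stricter form, AGTTTC, 2 bases of any kind and TTTC, the shares were 21.7% and 0.303%. A match is a run of letters and was not tested for binding, and the members were defined as interferon response genes.

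The 8 promoter stretches shown here belong to the members with an ISRE core that lies whole before the start. Each runs 5′ to 3′ on the strand of its gene, and the capitals mark every ISRE core on either strand that lies whole in the stretch. They are Ifit1 (chr19:34640779-34640838, plus strand), Ifit3 (chr19:34583382-34583441, plus), Isg15 (chr4:156200850-156200909, minus), Oas1a (chr5:120907526-120907564, minus), Oas3 (chr5:120777700-120777759, minus), Stat2 (chr10:128270251-128270310, plus), Rsad2 (chr12:26456538-26456597, minus) and Bst2 (chr8:71537562-71537621, minus), all upstream of the RefSeq start.
Ifit1: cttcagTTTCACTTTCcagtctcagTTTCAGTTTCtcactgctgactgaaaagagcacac
Ifit3: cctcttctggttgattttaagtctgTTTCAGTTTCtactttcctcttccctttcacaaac
Isg15: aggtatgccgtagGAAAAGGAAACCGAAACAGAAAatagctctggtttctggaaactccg
Oas1a: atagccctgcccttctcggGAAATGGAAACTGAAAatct
Oas3: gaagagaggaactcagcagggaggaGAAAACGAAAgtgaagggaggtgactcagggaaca
Stat2: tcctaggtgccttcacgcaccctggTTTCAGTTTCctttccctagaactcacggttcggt
Rsad2: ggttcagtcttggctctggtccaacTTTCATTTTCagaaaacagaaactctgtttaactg
Bst2: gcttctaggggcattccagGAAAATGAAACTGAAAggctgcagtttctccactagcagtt
In Isg15, Oas1a and Bst2 overlapping cores form 1 longer run of capitals, and in Ifit1 a pair of separate cores stands 104 and 85 bases before the start. The cores nearest to and farthest from a start among these 8 were that of Oas1a at 14 bases and that of Stat2 at 222 bases before it.

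**Figure D1:**
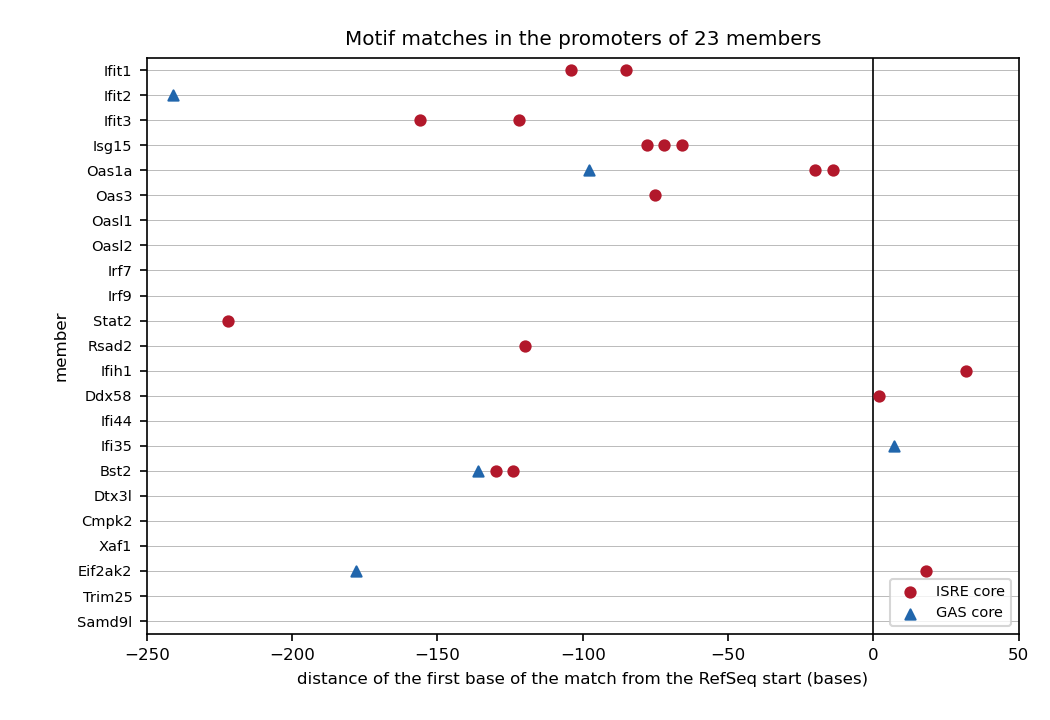
Positions of ISRE cores (red circles) and gamma-activated cores (blue triangles) in the promoters of the 23 members with a RefSeq promoter; the x axis is the distance in bases from the start to the first base of the match. The ISRE cores of 8 members lie before the start, and those of Ifih1, Ddx58 and Eif2ak2 lie after it.

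Levels across the 8 groups were set side by side in RPM, from tables that the authors normalized separately, so no test was made across tables. Every member had a higher mean in wild-type tumours in Rag1-/- hosts than in cultured wild-type cells, with a median ratio of 10.2 over the members (range 1.66 to 133), and for 32 of the 33 all 5 tumour libraries lay above all 3 cultured ones. Mx1, a gene of the Mx GTPase family, had 0.976 ± 0.787 RPM (SD, n = 3) in culture and 92.9 ± 23.01 RPM (SD, n = 5) in Rag1-/- hosts. Stat2, the signal transducer, had 43.8 ± 10.2 and 202 ± 35.1 RPM. Wild-type tumours at day 4 had a lower mean than those in Rag1-/- hosts for all 33 members, with a median ratio of 0.263, and 29 of them did not overlap. Day 6 IgG tumours lay above day 4 wild-type tumours for 32 members, 30 of them without overlap, with a median ratio of 2.99. None of these counts across tables was made over all genes. A shift shared by many genes therefore cannot be told apart from one of the members. The summed level of all members averaged 943 RPM in cultured wild-type cells, 5575 in wild-type tumours in Rag1-/- hosts, 1641 at day 4 and 4352 under IgG at day 6. These groups also differ in host, day and leukocyte marker level. In Ddr1 the day 6 IgG tumours had 15.9 to 22.1 RPM against 132 to 175 in day 4 wild-type tumours. What part each of these has in the members' levels was not tested.

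Per kilobase of merged exons, Bst2, which encodes the membrane tether tetherin, stood first among the members in 7 of the 8 groups, from 182 RPM per kb in cultured knockout cells to 979 in wild-type tumours in Rag1-/- hosts. In day 4 knockout tumours Ifi27l2a, a small mitochondrial protein gene, stood first with 452 RPM per kb against 323 for Bst2. Isg15, whose product is a ubiquitin-like modifier, ranked 3 in the 6 tumour groups and 4 and 5 in cultured wild-type and knockout cells. Among the lowest were Mx2, Zbp1 and Ifi44 in cultured wild-type cells, at 0.173 to 0.227 RPM per kb, and Mx2 in every tumour group.

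**Figure D2:**
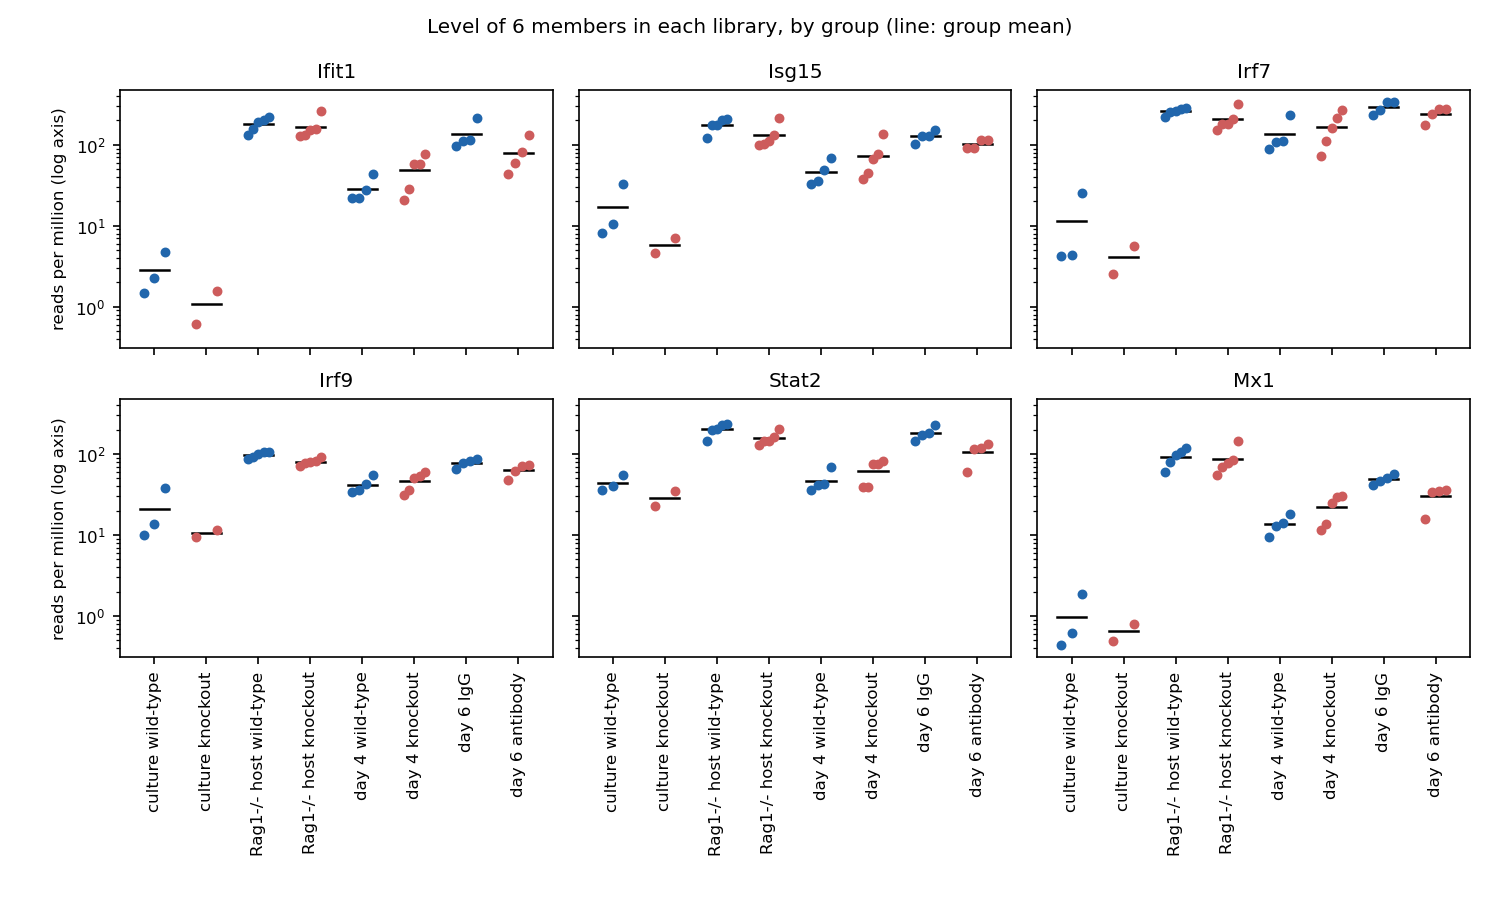
RPM of 6 members in every library (points) by group, with the group mean as a line, on a log axis; blue marks wild-type or IgG and red marks knockout or antibody. Ifit1 and Mx1 lie below 5 RPM in all cultured libraries, and the tumour groups lie above them, lowest at day 4.

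The first comparison asks how the members differ between cultured knockout and wild-type cells. Of the 33, 32 had an estimate below 0, where 49.5% of all genes did, and the median log2 change was -1.01, against 0.0035 over all 11911 genes tested, but no member was called changed at an adjusted p under 0.05 in either direction by limma on log2(normalized count + 1). Of the 33, 4 (Oas2, Mx2, Ifi44 and Zbp1) had a knockout mean under 10 normalized counts and were tested only through their wild-type mean, so that their estimates had to be lower. Of the other 29 members, 28 lay below 0, with a median of -0.74. Over all genes the called shares were 0.311% lower and 0.0168% higher. At an unadjusted p under 0.05, 7 members were lower and 0 higher, beside 9.62% of all genes lower and 9.21% higher. On recovered reads edgeR called 0 members lower (0.216% of all genes), while DESeq2 called 7 lower (4.64% of all genes). The authors' deposited table gave 17 members an adjusted p under 0.05 with a lower level, where it did so for 2.83% of all genes. Of the members, 13 had both knockout libraries below all wild-type ones, and 17.7% of all genes did the same.

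The parental library was the highest of the 5 for 31 of the 33 members, the exceptions being Ifit2 and Samd9l. This count was not made over all genes. The lowest estimate, that of Oas3 (-2.64 ± 1.16, limma adjusted p = 0.285), went with 902 ± 1269 normalized counts in wild-type and 72.0 ± 46.9 in knockout libraries, an SD above the mean in the wild type. The parental library had a mean log2 level over the members of 9.36. The empty vector and control libraries had 7.18 and 7.39, and the knockout libraries 6.60 and 7.21. Over all genes tested, the mean log2 levels of the 5 libraries lay between 9.67 and 9.84, the highest being that of the parental library. It also had reads for the most genes, 15537 against 13972 to 14430 in the others, from the fewest reads (29270919). The parental library thus differed from the others outside the members too, and the part of this in the members' levels was not tested. Without the parental library, the members' median change was -0.31, and 3 members (Samd9l, Dtx3l and Parp9) were called lower at limma adjusted p of 0.0109, 0.0391 and 0.0461, beside 6.39% of all genes.

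The members of smallest p in culture were Samd9l, Dtx3l, Parp9 and Parp14. Samd9l, an antiviral factor that restrains protein synthesis, had 2285, 2205 and 3275 normalized counts in wild-type replicates 1 to 3 and 983 and 1142 in the knockout libraries, which lay well below all wild-type libraries. Its estimate was -1.26 ± 0.19 log2 units (SE, limma adjusted p = 0.0548), and the authors' deposited table gives an adjusted p of 3.11e-10. Dtx3l, a ubiquitin ligase, had 698, 515 and 561 against 345 and 363 (log2 change -0.73 ± 0.17, limma adjusted p = 0.0908). Its partner Parp9, an ADP-ribosyltransferase family protein with which it forms a complex, had 956, 608 and 673 against 444 and 439 (-0.73 ± 0.21, limma adjusted p = 0.130). Their neighbour Parp14, another ADP-ribosyltransferase, had 827, 406 and 519 against 319 and 166 (-1.28 ± 0.37, limma adjusted p = 0.136). In each of these 4 genes every knockout library lay below every wild-type library, and these differences did not pass the test; the 3 last sit side by side on chromosome 16, and Dtx3l and Parp9 overlap on opposite strands.

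For Stat2, Irf9 and Irf7, at the core of the pathway, the parental library was highest and the other wild-type libraries overlapped the knockout libraries. Stat2 had 1901, 1365 and 1215 normalized counts in wild-type libraries and 785 and 1231 in knockout libraries, with overlap (log2 change -0.58 ± 0.25, limma adjusted p = 0.278). Irf9, its DNA-binding partner, had 1324, 339 and 455 against 324 and 408 (-0.69 ± 0.53, limma adjusted p = 0.530). Irf7, the factor that amplifies interferon production, had 868, 149 and 143 against 88.1 and 195 (-1.01 ± 0.80, limma adjusted p = 0.548). In Irf9 and Irf7 the knockout libraries fell within or beside the range of the empty vector and control libraries. Isg15 had 1139, 278 and 354 against 158 and 244 (-1.29 ± 0.57, limma adjusted p = 0.288), with no overlap. Ifit1, which binds foreign RNA caps, had 162, 50.1 and 76.6 against 21.0 and 55.0 (-1.30 ± 0.60, limma adjusted p = 0.300). Mx1 was low throughout, with 64.4, 14.8 and 20.7 against 16.8 and 28.0 (-0.31 ± 0.68, limma adjusted p = 0.848), and its direction turned without the parental library (0.29). The family neighbour Ifit2, at 942 ± 103 (SD, n = 3) against 884 ± 35.4 (SD, n = 2) normalized counts, showed a log2 change of -0.09 ± 0.13.

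In the rest of the pathway, lists chosen like the members showed no gene called by limma in culture. The authors' deposited table gave an adjusted p under 0.05 with a lower level to 3 of 28 other interferon response genes. It did so for 2 of 9 interferon gamma response genes, 2 of 10 negative regulators and 1 of 5 receptor and signalling genes (2.83% of all genes). Of 14 sensing genes, 1 was higher there. Ifnar1 had 2772 ± 111 against 2586 ± 114 normalized counts and Ifnar2 818 ± 24.3 against 934 ± 40.7, and neither passed the test (limma adjusted p = 0.615 and 0.413). No type I interferon gene reached a mean of 10 normalized counts. Among the other lists the smallest p belonged to the RNA helicase gene Znfx1 (-0.41, adjusted p = 0.0851) among other interferon response genes, to the chemokine Cxcl10 (-1.54, 0.0953) among interferon gamma response genes, to the transcription factor Irf3 (-0.48, 0.102) among sensing genes and to Nlrx1 (-0.72, 0.108) among negative regulators, all by limma.

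**Figure D3:**
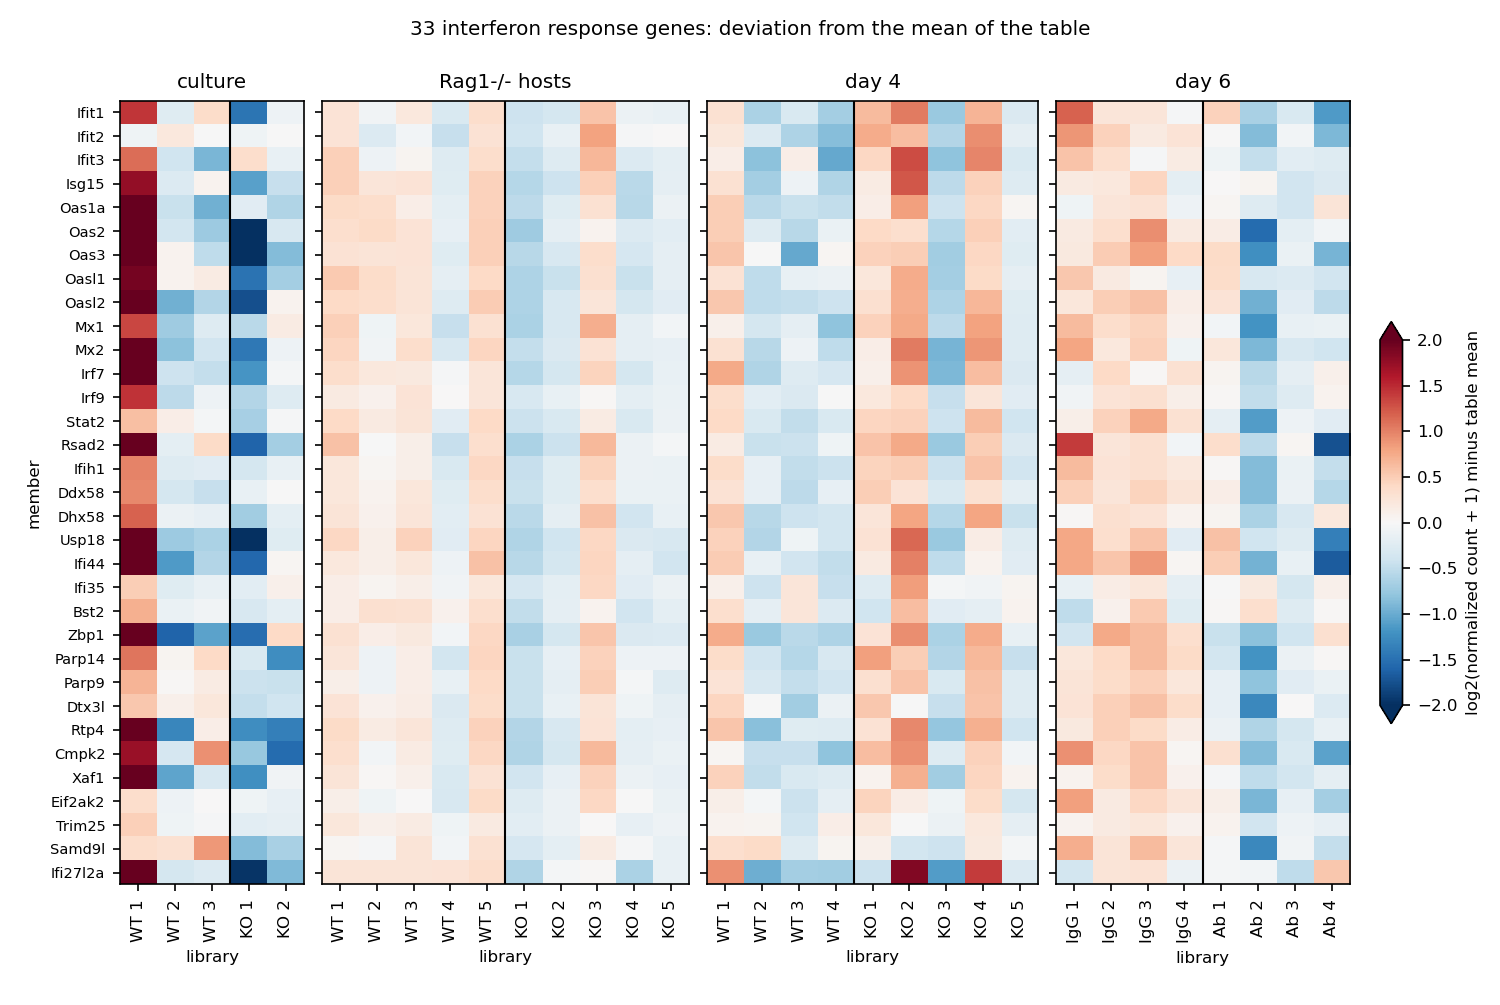
Deviation of each member's log2(normalized count + 1) from its mean in the table, for every library (columns; WT wild-type, KO knockout, Ab antibody; the line parts the 2 groups of a table); colours are clipped at 2 log2 units. The parental library (culture WT 1) stands above its table for most members. So do wild-type libraries 1, 2, 3 and 5 and knockout library 3 in Rag1-/- hosts. At day 4 these are WT 1, KO 1, KO 2 and KO 4, and at day 6 the IgG libraries. Among the libraries that stand below are antibody libraries 2, 3 and 4 at day 6, KO 3 at day 4, and KO 1 in Rag1-/- hosts and in culture.

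In Rag1-/- hosts, 9 members fell in knockout tumours and 0 rose. The 9 were the tether Bst2, the signalling genes Irf9 and Stat2, the oligoadenylate synthetase family genes Oas1a, Oas2, Oasl1 and Oasl2, the ubiquitin ligase Trim25 that activates RNA sensing, and Ifi27l2a. Of all genes tested, 11.4% were called lower and 11.3% higher, so that 9 of 33 stands above that share, while the changes were small (log2 -0.56 to -0.23). Of all 33 members, 32 lay below 0 (50.7% of all genes), with a median of -0.27 against -0.0035 over all genes. At an unadjusted p under 0.05, 17 were lower (18.2% of all genes). The authors' deposited table gave 5 members an adjusted p under 0.05 with a lower level (7.53% of all genes). Of the 9, 5 (Bst2, Ifi27l2a, Irf9, Oas2 and Trim25) were called in each fit with 1 library left out.

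Bst2 had 17582, 20056, 19831, 17027 and 20182 normalized counts in wild-type tumours and 11366, 14105, 16752, 12271 and 13964 in knockout tumours. Every knockout library lay below every wild-type library, and Bst2 fell by 0.48 ± 0.09 log2 units (SE, limma adjusted p = 0.00238). Ifi27l2a had 2676, 2692, 2695, 2723 and 2866 against 1477, 2199, 2284, 1449 and 2020.5, again without overlap (-0.56 ± 0.11, limma adjusted p = 0.00374). Bst2 and Ifi27l2a were the 2 members whose groups did not overlap, where 7.14% of all genes had every knockout library below the wild-type ones.

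In the transcription factor complex, Irf9 had 2109, 1987, 2261, 1877 and 2214 normalized counts in wild-type and 1505, 1684, 1894, 1628 and 1712 in knockout tumours. Knockout library 3 alone reached into the wild-type range, and Irf9 fell by 0.31 ± 0.07 (limma adjusted p = 0.00506). Stat2 had 4890.3, 4196, 4433, 3189 and 4909.8 against 2757, 2996, 4170, 3027 and 3414, and fell by 0.40 ± 0.12 (limma adjusted p = 0.0299). Wild-type library 4 was low for Stat2, within the knockout range. The receptor genes did not pass the test: Ifnar1 had 1896 ± 72.4 against 1906 ± 98.2 and Ifnar2 871 ± 39.6 against 859.7 ± 41.7 normalized counts. Irf7 had 6162, 5609.6, 5562, 4774 and 5737 against 3247, 3794, 6604, 3786 and 4374 (-0.39 ± 0.14, limma adjusted p = 0.0644).

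The oligoadenylate synthetase family senses double-stranded RNA and, in its active members, activates the nuclease RNase L. Oas2 had 2815, 2905, 2698, 1986 and 3102 normalized counts in wild-type and 1367, 1966, 2353, 1848 and 1933 in knockout tumours, and fell by 0.52 ± 0.13 (limma adjusted p = 0.0138). Oasl1, a family member without that activity, had 3669.6, 3299, 3041, 2262 and 3376 against 1660.1, 1877, 3186, 1869 and 2253 (-0.55 ± 0.16, limma adjusted p = 0.0235). Its neighbour Oasl2 had 6786, 6596, 6199.8, 4302 and 7347 against 3379, 4154, 6146, 4069 and 4436 (-0.50 ± 0.15, limma adjusted p = 0.0298). In all 3 genes wild-type library 4 reached down into the knockout range, and knockout library 3 was the highest knockout library. Oas1a fell by 0.45 ± 0.15 (limma adjusted p = 0.0499), at the threshold, and Oas3 with a change of -0.42 missed it (limma adjusted p = 0.0597). Trim25 had 5113, 4732, 4908, 4118 and 4957 against 3798, 4063, 4417, 3929.7 and 4086, and fell by 0.23 ± 0.06 (limma adjusted p = 0.0153).

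Other effectors overlapped broadly. Isg15 had 4367, 3712, 3797, 2668 and 4345 normalized counts in wild-type and 2113, 2354, 4364, 2173 and 2783 in knockout tumours (-0.49 ± 0.18, limma adjusted p = 0.0643). Ifit1 had 4312, 3406, 4155, 2907 and 4571 against 2685, 2795, 5325, 3319 and 3233 (-0.18 ± 0.17, limma adjusted p = 0.455). Mx1 had 2535, 1707, 2130.0, 1319.7 and 2239 against 1172, 1450.1, 3001, 1609 and 1752 (-0.18 ± 0.22, limma adjusted p = 0.575). In all 3 genes knockout library 3 was the highest knockout library, for Ifit1 and Mx1 the highest of the table. Ifit2 was the single member above 0 (0.09 ± 0.19).

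Knockout library 3 was the highest knockout library for 33 of 33 members and the highest of the table for 15, and wild-type library 4 was the lowest wild-type library for 32. Without knockout library 3, 26 members were called lower (11.9% of all genes), and without wild-type library 4, 16 were (9.91%). Without wild-type library 1 or 2, or knockout library 1, 2 or 4, the count was 5 in each case (8.70%, 7.57%, 9.47%, 9.24% and 8.18% of all genes), and without wild-type library 3 or 5 it was 6 (8.98% and 12.4%). For the fit without knockout library 5 the count of members is not given here, and 1327 of all 12790 genes were called lower. Knockout library 3 also had the highest leukocyte marker sum of the table (379 RPM against 272 to 358 in the other libraries) and the highest sum of 10 macrophage and monocyte markers (1214 against 799 to 1129). The summed levels of the groups overlapped (leukocyte markers 303 to 358 RPM in wild-type and 272 to 379 in knockout tumours), and their part in the members' change was not tested.

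Among the pathway genes outside the members, Ifnb1, which encodes interferon beta, was the 1 type I interferon gene with a mean of 10 or more, at 26.1 ± 7.2 normalized counts in wild-type and 18.2 ± 4.5 in knockout tumours (SD, n = 5 each; -0.48 ± 0.25, limma adjusted p = 0.188). The counts that follow stand beside the 11.4% of all genes that were called lower and 11.3% called higher in this table. Of 15 sensing genes, 2 fell, namely Irf3, the transcription factor that turns on interferon genes (-0.42, limma adjusted p = 0.000102), and the adaptor Mavs (-0.23, 0.00721), and 1 rose, the kinase Ikbke (0.58, 0.00136). Of 10 negative regulators 3 fell, namely Nlrx1 (-0.45), the RNA editor Adar (-0.36) and Nlrc5 (-0.32). Of 33 measured other interferon response genes, 8 fell and 0 rose, led by Apol9b (-0.67, limma adjusted p = 0.000804) and the viral entry inhibitor Ifitm3 (-0.43, 0.00183). Of 14 interferon gamma response genes 1 fell, the immunoproteasome subunit Psmb9 (-0.61, limma adjusted p = 0.000313).

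**Figure D4:**
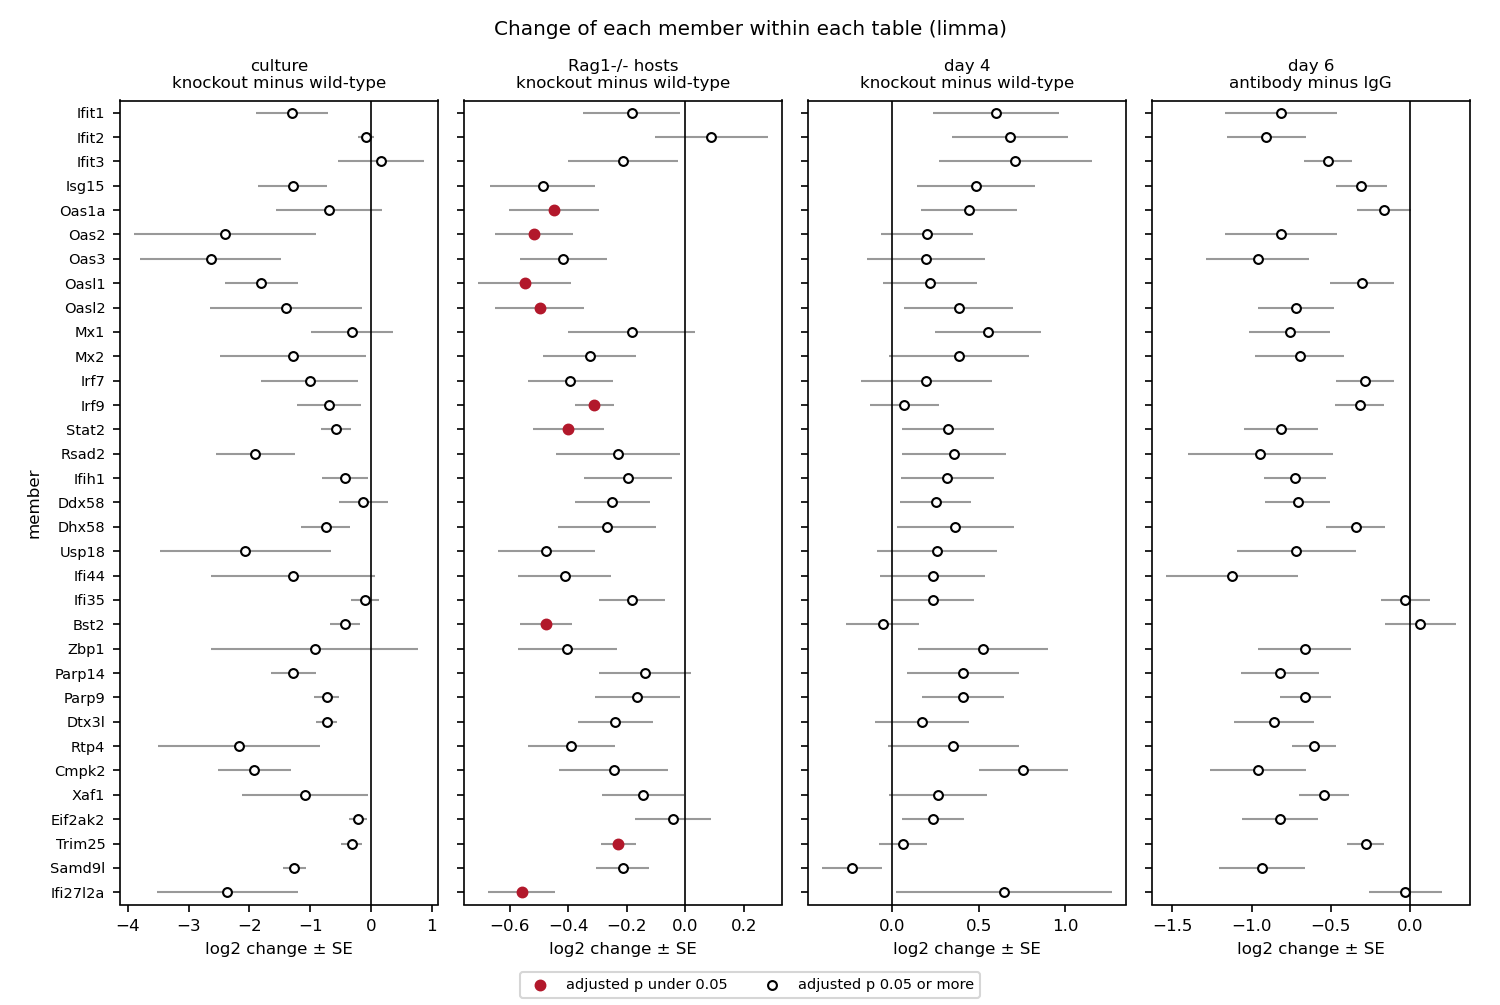
Log2 change of each member (point) with its standard error (line) in the 4 comparisons; filled red points have a limma adjusted p under 0.05, and the x axes differ in range. Estimates lie below 0 for 32 members in culture, in Rag1-/- hosts and at day 6, and above 0 for 31 at day 4; the called points are the 9 in Rag1-/- hosts.

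At day 4 after transfer into C57BL/6 hosts, 0 of 33 members were called in either direction by limma (0.00709% of all genes were called higher and 0.0284% lower). Of the members, 31 lay above 0 in the knockout (50.3% of all genes), with a median log2 change of 0.32 against 0.0028 over all genes, and Bst2 and Samd9l lay below. At an unadjusted p under 0.05 there was 1 member higher (6.67% of all genes) and 0 lower (8.33%). On recovered reads edgeR and DESeq2 also called 0 members higher (0.00712% and 2.43% of all genes). The groups overlapped for all 33 members, where 1.91% of all genes had every knockout library above the wild-type ones and 3.85% below.

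Cmpk2, a mitochondrial nucleotide kinase, had 483, 341, 342 and 270.4 normalized counts in wild-type tumours and 723, 889, 392, 652 and 454 in knockout tumours (0.76 ± 0.26, limma adjusted p = 0.235). Ifit2 had 859, 607, 478 and 408 against 1233, 1126, 487, 1397 and 649 (0.68 ± 0.34, limma adjusted p = 0.376). Mx1 had 419, 306, 345 and 224 against 535, 660.0, 269.9, 680.3 and 327 (0.55 ± 0.31, limma adjusted p = 0.428). In these 3 genes knockout libraries 1, 2 and 4 lay above all 4 wild-type libraries, and knockout libraries 3 and 5 did not. Parp9 had 1136, 748, 670.4 and 718 against 1165, 1390.1, 759, 1398 and 784 (0.41 ± 0.24, limma adjusted p = 0.444). Ifit1 had 1009.9, 527, 662 and 509 against 1269.5, 1687, 490.1, 1315 and 671 (0.60 ± 0.36, limma adjusted p = 0.470). Isg15 had 1583, 797, 1185 and 840.2 against 1436, 3003.5, 884, 1754 and 1062 (0.48 ± 0.34, limma adjusted p = 0.540). Wild-type library 1 was the highest wild-type library of these 6 genes.

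The transcription factor genes were spread in the same way. Stat2 had 1599.8, 986, 869 and 986 normalized counts in wild-type and 1639.7, 1677, 919, 1886 and 929.6 in knockout tumours (0.32 ± 0.27, limma adjusted p = 0.605). Irf9 had 1279, 865, 819 and 997 against 1156, 1321, 725, 1179 and 855 (0.07 ± 0.20, limma adjusted p = 0.898). Irf7 had 5388, 2103, 2682 and 2534 against 3445, 5961, 1705, 4912 and 2619 (0.20 ± 0.38, limma adjusted p = 0.837). For Irf9 and Irf7 wild-type library 1 lay inside the upper part of the knockout range, and the direction of Irf9 turned without wild-type library 3 (-0.02) or knockout library 2 (-0.02), as that of Irf7 did without knockout library 2 (-0.01).

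The day 4 libraries fell into a high and a low set for most members. Wild-type library 1 and knockout libraries 1, 2 and 4 were above the median of the table for 29 to 32 members each, and the other 5 libraries for 0 to 4. The same 4 libraries had the highest leukocyte marker sums, 670.0 to 802 RPM against 292 to 497 in the others, the highest macrophage and monocyte sums, 2346 to 3371 against 1077 to 1646, and the highest sums of 6 fibroblast markers, 6652 to 9188 against 1939.6 to 2786. As 3 of 5 knockout and 1 of 4 wild-type libraries are in the high set, these sums move with the members and with the group, and their part in the difference was not tested. Sums of 5 keratinocyte markers parted by genotype, at 0.688 to 1.32 RPM in wild-type and 12.4 to 589 in knockout tumours. The highest of these sums was in knockout library 3, which was lowest for 15 members. Red blood cell markers, with reads for Alas2 only, parted as well (2.02 to 5.85 against 11.9 to 78.2 RPM). Adipocyte sums (33.1 to 250 against 117 to 2768) and endothelial sums (66.3 to 289 against 214 to 868) overlapped. The part of these markers in the members' difference was not tested. T cell markers were low in all day 4 libraries (4.13 to 15.4 RPM).

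**Figure D5:**
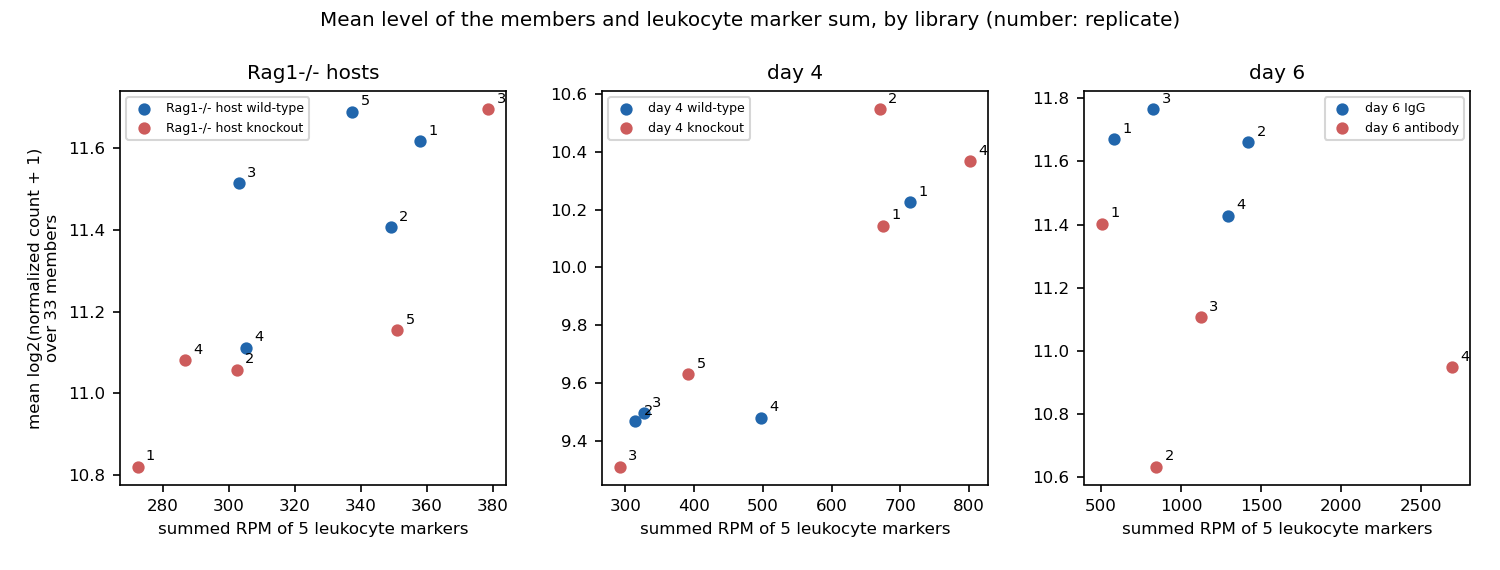
Mean log2 level over the 33 members against the summed RPM of 5 leukocyte markers, 1 point a library, numbered by replicate, within each tumour table. At day 4 the 4 libraries with a marker sum of 670 or more have the 4 highest mean levels, and at day 6 the antibody libraries lie below the IgG libraries while antibody library 4 has the highest marker sum.

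Of the pathway lists, no gene was called by limma at day 4. Ifnar1 (0.11) and Ifnar2 (0.17) did not pass the test, and no type I interferon gene reached a mean of 10. The smallest p of each remaining list belonged to the adaptor Ticam1 (-0.42, limma adjusted p = 0.233), to Socs3, a feedback inhibitor of cytokine signalling (-0.25, 0.469), to the guanylate-binding protein Gbp2 (0.87, 0.298) and to Ido1 (3.20, 0.298), an enzyme of tryptophan breakdown that had 1.6 ± 0.5 against 65.5 ± 69.6 normalized counts and was tested only through its knockout mean.

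The knockout effects in the 2 kinds of host were compared gene by gene from the limma estimates of tables that share no library. For 32 of 33 members the day 4 effect lay above the effect in Rag1-/- hosts, with a median difference of 0.63 log2 units against -0.01 over all 11247 genes tested in both tables, of which 48.8% lay above 0. No member passed an adjusted p under 0.05, where 4.68% of all genes did in either direction, and 10 had an unadjusted p under 0.05, as did 2256 of all 11247 genes. The smallest adjusted p was that of Cmpk2, -0.24 in Rag1-/- hosts and 0.76 at day 4, a difference of 1.00 ± 0.32 (SE; adjusted p = 0.0703 from the limma estimates), followed by Oas1a (0.89 ± 0.32, 0.113) and Oasl2 (0.88 ± 0.35, 0.158). A difference between the 2 knockout effects was therefore not called for any member. The day 4 tumours had also been moved between mice, and the tables were normalized separately. Host cannot be told apart from these here.

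At day 6 no member was called under hDDR1 ECD antibody against IgG by limma, where the smallest adjusted p was 0.517 and 0% of all genes were called in either direction. Of the members, 32 lay below 0 (51.6% of all genes) and the median log2 change was -0.71, against -0.01 over all genes. At an unadjusted p under 0.05, 22 members were lower and 0 higher, beside 4.43% of all genes lower and 4.18% higher. All 4 antibody libraries lay below all 4 IgG libraries for 14 members, which held for 1.87% of all genes. On recovered reads edgeR called 0 members, as it called 0% of all genes lower, and DESeq2 called 2, Rtp4 and Parp9 (0.522% of all genes lower). The authors' deposited table likewise gave 2 members an adjusted p under 0.05, Rtp4 (0.0251) and Parp9 (0.0411), beside 0.54% of all genes lower.

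Rtp4, a receptor-transporting protein that dampens interferon signalling, had 2742, 3325, 3127 and 2638 normalized counts under IgG and 2196, 1579, 1862 and 2163 under antibody (-0.61 ± 0.14, limma adjusted p = 0.517). Parp9 had 3987, 4325, 4663 and 3891 against 2977, 1913, 2870.2 and 3047 (-0.66 ± 0.16, limma adjusted p = 0.517). Ifih1, the sensor of long double-stranded RNA known as MDA5, had 3083, 2414, 2484 and 2309.5 against 2021, 1087, 1807 and 1430.4 (-0.73 ± 0.20, limma adjusted p = 0.517). Ifit2 had 6721, 5016, 4131 and 4415 against 3629.9, 1993, 3501 and 1952 (-0.91 ± 0.25, limma adjusted p = 0.517). In each of these 4 genes the groups did not overlap, and antibody library 2 or 4 was lowest.

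Stat2 also showed no overlap, with 4350.2, 5518, 6803 and 4961 normalized counts under IgG and 3549, 1849, 3747 and 3434 under antibody (-0.82 ± 0.24, limma adjusted p = 0.517). Mx1 had 1728, 1413, 1516 and 1183 against 1075, 487, 997 and 1015, again without overlap (-0.76 ± 0.25, limma adjusted p = 0.517). Irf9 had 1969, 2501, 2603 and 2255 against 2120.5, 1477, 1744 and 2188, which overlap (-0.32 ± 0.15, limma adjusted p = 0.517). Irf7 overlapped as well, with 6941, 10362, 7943 and 9710.1 against 8163, 5340.4, 6919 and 8359.9 (-0.28 ± 0.18, limma adjusted p = 0.539). Ifit1 had 6461, 3385, 3365 and 2807 against 3934, 1827, 2317 and 1299 (-0.81 ± 0.35, limma adjusted p = 0.517). Isg15 had 3843, 3923, 4547 and 2957 against 3423, 3503, 2593 and 2770.5 (-0.31 ± 0.16, limma adjusted p = 0.517). For Ifit1 and Isg15 the groups overlapped, and IgG library 1 stood far above the others for Ifit1 but not for Isg15.

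The other non-overlapping members were Ddx58 (RIG-I, a sensor of viral RNA ends; -0.71), Ifit3 (-0.52), Samd9l (-0.93), Xaf1 (-0.54), Eif2ak2 (PKR, a kinase that halts translation; -0.82), Dtx3l (-0.86), Parp14 (-0.82) and Oas2 (-0.81). Bst2 (0.06), Ifi35 (-0.03) and Ifi27l2a (-0.03) had estimates near 0. Ifi44 had the lowest estimate, -1.13 ± 0.41, with overlap.

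Antibody library 2 was the lowest of the table for 21 members, and antibody library 1 was the highest antibody library for 20. IgG libraries 3 and 1 were the highest of the table for 15 and 13. Leaving out antibody library 2 moved the median change to -0.51, and leaving out antibody library 1 moved it to -0.86. Antibody library 4 had the highest leukocyte marker sum (2698 RPM) and the highest T cell marker sum (416 RPM) of the table, and it was lowest for Rsad2, Ifi44 and Usp18 among others. Leukocyte marker sums overlapped between the groups, at 580 to 1421 RPM under IgG and 505 to 2698 under antibody, and sums of 5 skeletal muscle markers were 107 to 5047 against 2.90 to 161. Sums of 5 keratinocyte markers were 0.343 to 1.01 under IgG and 0.931 to 181 under antibody, and those of 5 adipocyte markers 21.0 to 46.7 and 40.9 to 336. The part of these markers in the members' difference was not tested.

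Pathway genes outside the members were not called by limma at day 6 either. The authors' deposited table called 3 of 35 other interferon response genes and 1 of 15 sensing genes lower (0.54% of all genes). Ifnb1 had 8.8 ± 5.7 normalized counts under IgG and 14.4 ± 2.8 under antibody (SD, n = 4 each; 0.83 ± 0.54, limma adjusted p = 0.543), and it was tested only through its antibody mean, being under 10 with IgG. Ifnar1 and Ifnar2 had changes of -0.05 and 0.08. Of 35 measured other interferon response genes, 33 lay below 0, with a median of -0.58, and 11 did not overlap, where 51.6% of all genes lay below 0 and 1.87% did not overlap. Their smallest p was that of the DNA-sensing family gene Ifi205 (-1.11, limma adjusted p = 0.517), and that of the sensing genes was Tlr3 (-0.87, 0.517), the endosomal receptor for double-stranded RNA. Ifng, the interferon gamma gene, had 138 ± 88.5 against 128 ± 155 normalized counts.

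Members with and without an ISRE core in the promoter had similar medians in the tumour tables. In Rag1-/- hosts the median change was -0.25 for the 11 with a core and -0.24 for the 12 without, at day 4 it was 0.32 and 0.22, and at day 6 it was -0.73 and -0.63. In culture the medians were -0.58 and -1.05, with ranges from -2.64 to 0.17 and from -1.92 to -0.09. No test was made of these medians.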

How the data were processed

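The authors deposited 4 tables, 1 per comparison, of signal values per gene and library that are normalized read counts, and the submitters' processing notes name CASAVA, TopHat, DESeq2 and the mm10 build without role or version. For the counter, the annotation and the use of strand, the answer is not given in the sources used here. The authors' adjusted p-values in the deposited tables were made before deposit and are quoted as theirs. Deposited values were whole multiples of 1 step per library: 100% came out as whole reads within 0.01 in all 32 libraries, and these reads gave totals and RPM. In 3 libraries the step is within 0.005 of 1 on the log10 scale. A further 18 columns were not used.

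Each table was tested on its own with limma 3.58.1 in R 4.3.3 (mean-variance trend, no covariate) on log2(normalized count + 1), genes with a mean of 10 or more, two-sided, Benjamini-Hochberg adjustment over all genes tested, called at an adjusted p under 0.05; on this scale changes of weakly expressed genes are understated. The fit was tested on simulated data. The host comparison divided the difference of limma estimates by the root of the summed squared SEs. Other settings tried were a pseudocount of 0.5 or 5, a minimum mean of 50 or none, rescaling by upper quartiles or quantiles, a fit without trend, edgeR 4.0.16 or DESeq2 1.42.0 run on the recovered reads, a block for the replicate number, and leaving out 1 library at a time. Members and lists were chosen with earlier results of these data known. Values in every library are given for the members called (at most 8) or, where under 4 were called, the 4 of smallest p, and for Ifit1, Isg15, Irf7, Irf9, Stat2 and Mx1. Of each other list, called genes or that of smallest p are named, except 1 pathway gene that is not reported here. Gene positions are from GENCODE vM21 on GRCm38. Tables and figures were made in Python 3.11.15 with pandas 2.3.3 and matplotlib 3.10.9.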

Additional observations from a re-analysis of the deposited data

Results flagged for a closer look

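In groups of 4 or 5 libraries, the gap between the highest or lowest library and its neighbour was set against the range of the group with Dixon's 95% limit, for each member and for the mean log2 level of all members. Of 204 such checks 27 passed the limit, where chance gives about 1 in 20 for a single check. Members often move together within a library, so the checks are not independent, and the count was not tested against chance.

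In Rag1-/- hosts, knockout library 3 stood above the other knockout libraries for 9 members, with a gap as a share of the range of 0.760 for Ifit1, 0.752 for Ifit2, 0.824 for Ifit3, 0.739 for Dhx58, 0.772 for Usp18, 0.760 for Ifi35, 0.772 for Zbp1, 0.716 for Cmpk2 and 0.755 for Xaf1. The 3 Ifit genes are neighbours. Wild-type library 5 stood above its group for Ifi27l2a (0.754).

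At day 4, wild-type library 1 stood above the other wild-type libraries for the mean level of the members (0.961) and for 7 members, with 0.934 for Oas1a, 0.935 for Oasl2, 0.839 for Stat2, 0.883 for Dhx58, 0.918 for Zbp1, 0.833 for Parp9 and 0.914 for Ifi27l2a. Knockout library 2 was far above its group for Ifi35 (0.784), and wild-type library 3 far below for Trim25 (0.837).

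At day 6, IgG library 1 stood above its group for Ifit1 (0.842) and Rsad2 (0.831), IgG library 3 for Oas2 (0.841) and antibody library 1 for Oasl1 (0.888). Antibody library 2 stood below its group for Mx1 (0.867), Stat2 (0.835) and Parp9 (0.844).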

How the results depend on the processing

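Of the counts and medians over members, 207 values under other settings stayed within 1.5 times the count reported or, for medians, within 1 SD between libraries, and 12 did not. A count of 0 that stayed 0 was also taken as unmoved. The SD limit is wide, and the culture median passed it when it moved from -1.01 to -0.31. This tally therefore says little about how stable the results are. With 1 library left out the median change in culture ranged from -1.42 to -0.31. DESeq2 on recovered reads called 7 members lower in culture and 2 at day 6, beside 0 by limma, and over all genes 493 higher and 564 lower in culture (limma 2 and 37), 380 and 340 at day 4 (1 and 4) and 83 and 79 at day 6 (0 and 0). In Rag1-/- hosts limma without trend called 5 members lower (1210 of all 12795 genes). The share of member promoters with an ISRE match was 21.7% under the stricter form. Leaving out 1 library moved the number called lower between 0 and 3 in culture and between 5 and 26 in Rag1-/- hosts. Among single genes, 688 values kept direction and side of the threshold, 22 lost and 14 gained the call, and 6 turned sign. Mx1 in culture turned under quantile normalization (0.021), and with 1 library left out it ranged from -0.73 to 0.29. At day 4, Irf7 ranged from -0.0067 to 0.48 and Irf9 from -0.024 to 0.20. The cause was not tested in any of these cases, except that leaving out a library means fewer samples.

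With the replicate number as a replicate block, 12 members were called lower in Rag1-/- hosts (1189 of all 12795 genes) and 0 at day 4 and day 6; Isg15 in Rag1-/- hosts gained the call (limma adjusted p = 0.0362). Same-numbered libraries had correlated deviations from their group means of -0.20 to 0.15 for Rag1-/- tumours, of -0.17 to 0.14 on day 4 and of -0.20 to 0.45 on day 6, and 1 of 10, 0 of 9 and 4 of 8 libraries correlated best with their own number. The numbers were therefore not taken to pair the libraries. In culture, no paired analysis was possible because the cultured cell derivatives carry no shared number.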
